A study of Mus musculus with 12 samples.

Results

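The interferon-inducible GTPases are large GTP-binding proteins that mouse cells make in quantity after exposure to interferon-gamma and, to a lesser degree, to type I interferons. Guanylate-binding proteins (GBPs) and immunity-related GTPases (IRGs) assemble on the vacuoles and membranes of intracellular microbes, and the GBPs also help bacterial products to reach inflammasome-forming caspases. Among the IRGs, the GMS proteins are regulators that reside on the cell's own membranes and hold the GKS proteins in their inactive state. The GKS proteins are the effectors that coat the vacuole. Followed here are the GMS genes *Irgm1*, *Irgm2* and *Igtp*, which is also called Irgm3, and the GKS genes *Iigp1*, *Ifi47* and *Tgtp2*. In the brain, microglia, infiltrating macrophages, astrocytes and endothelial cells can all switch on these genes when interferon is present.

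The genes followed here are the 10 rows of the count table, of 49315 in all, whose Ensembl identifiers map to *Gbp2*, *Gbp3*, *Gbp5*, *Gbp7*, *Irgm1*, *Irgm2*, *Igtp*, *Iigp1*, *Ifi47* and *Tgtp2*. The table holds bulk RNA-sequencing counts from the brains of 12 male mice taken 14 d after a transient occlusion of the middle cerebral artery. All 12 were CD45.1 recipients of the Pep Boy strain, irradiated with the head shielded. They were given a marrow mixture in which 90% of the cells were CD45.1 *Tet2*+/+ competitors. In the 6 WT mice the remaining 10% were CD45.2 *Tet2*+/+ cells, and in the 6 *Tet2*-KO mice they were CD45.2 *Tet2*-/- cells. The brain itself and most of the marrow, as transplanted, therefore carried intact *Tet2* in both groups. The 10% is the share at transplantation only. The paper reports that *Tet2*-KO donor cells expanded in the blood over the weeks between transplantation and the stroke. Recipients were 8 to 12 weeks old at transplantation and no sham-operated library is among these 12. The treatment entry of the labels names control cells for every sample, and the groups were therefore taken from the titles, with which the genotype entries agree.

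Total counts were 12000261 to 15340787 per WT library and 12625047 to 21049763 per *Tet2*-KO library. *Tet2* transcript, at 126 to 147 CPM (reads scaled to library size with TMM factors) in WT brains and 117 to 137 in *Tet2*-KO brains, cannot check the labels because most cells kept the gene. Libraries of the same group differed by more than sampling noise and each was counted as 1 sample. Neuronal markers were abundant in every library, with a summed level of 4015 CPM or more, and the defining genes of astrocytes, oligodendrocytes and microglia were present as well. The libraries of the *Tet2*-KO group did not form a tight set: replicates 1, 2, 3 and 6 were low for these GTPases, replicate 5 resembled WT brains and replicate 4 lay between.

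The genes sit in tandem clusters. On the GRCm38 assembly, *Gbp5*, *Gbp7*, *Gbp3* and *Gbp2* lie in this order on the plus strand of chromosome 3, with *Gbp2b* between *Gbp3* and *Gbp2*. They run from chr3:142493978-142522344 for *Gbp5* (ENSMUSG00000105504) to chr3:142620602-142638008 for *Gbp2* (ENSMUSG00000028270). The IRG genes followed here, other than *Iigp1*, lie on chromosome 11. There *Irgm1* (chr11:48861968-48871683), *Tgtp2* (chr11:49057194-49064206) and *Ifi47* (chr11:49076587-49096974) form one group and *Igtp* (chr11:58199556-58207591) and *Irgm2* (chr11:58199618-58222782) another. *Igtp* lies almost wholly inside the span of *Irgm2* on the same strand and 162 exonic bases belong to both, which is 8.0% of the exonic length of *Igtp*. *Tgtp2* has a close copy, *Tgtp1*, from which reads can only be separated where they map uniquely, and *Gbp7* shares 637 exonic bases with the transcript model *Gm43802*. *Ifi47* shares 111 exonic bases (4.5% of its exonic length) with *Olfr56* on the same strand and 106 (4.3%) with *Gm12188* on the opposite strand. The counts of these genes are uncertain to that extent.

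RefSeq promoter windows on GRCm38.p6, each of 300 bases and running from 250 bases before the annotated start to 50 after it, were matched to 9 of the 10 genes. Both motifs below are the classical binding strings of interferon-activated factors. The interferon-stimulated response element (ISRE) was searched as GAAANNGAAA and the gamma-activated site (GAS) as TTCNNNGAA, on both strands. An ISRE string occurred in 8 of the 9 genes and a GAS string in 5, compared with 3.44% and 8.30% of the 32851 promoter windows in the table. A gene was counted if any of its windows matched, and the second *Gbp3* window held neither string. *Gbp5*, *Gbp7*, *Irgm2*, *Igtp* and *Tgtp2* held both, compared with 0.454% of all windows, and *Ifi47* held neither.

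In *Irgm2*, *Igtp* and *Tgtp2* the ISRE string begins exactly 11 bases after the GAS string begins, an arrangement noticed after the matches were listed and seen also in *Tgtp1* and *Gm12185*. The windows of *Irgm2* and *Igtp* share an unbroken run of 61 bases. In the windows below, read 5′ to 3′ along the gene, capitals mark the GAS and ISRE strings. *Irgm2*, *Igtp* and *Tgtp2* show the paired arrangement in 2 GMS regulators and a GKS effector, *Gbp2* shows a lone ISRE string close to its start, and *Ifi47* shows the window of the gene with the lowest fold change, where these letters are not found.
*Irgm2*, chr11:58214727-58215026, plus strand: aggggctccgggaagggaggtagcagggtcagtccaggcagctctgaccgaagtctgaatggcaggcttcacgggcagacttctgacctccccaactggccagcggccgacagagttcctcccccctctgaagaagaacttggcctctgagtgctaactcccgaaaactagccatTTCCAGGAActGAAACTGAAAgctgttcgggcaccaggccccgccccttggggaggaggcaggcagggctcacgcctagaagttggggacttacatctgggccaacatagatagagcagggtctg
*Igtp*, chr11:58199306-58199605, plus strand: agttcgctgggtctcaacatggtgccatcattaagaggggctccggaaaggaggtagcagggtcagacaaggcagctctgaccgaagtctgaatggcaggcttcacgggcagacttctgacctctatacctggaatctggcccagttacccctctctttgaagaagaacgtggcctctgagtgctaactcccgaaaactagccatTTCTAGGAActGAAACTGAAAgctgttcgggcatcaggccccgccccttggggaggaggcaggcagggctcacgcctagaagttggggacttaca
*Tgtp2*, chr11:49064163-49064462, minus strand: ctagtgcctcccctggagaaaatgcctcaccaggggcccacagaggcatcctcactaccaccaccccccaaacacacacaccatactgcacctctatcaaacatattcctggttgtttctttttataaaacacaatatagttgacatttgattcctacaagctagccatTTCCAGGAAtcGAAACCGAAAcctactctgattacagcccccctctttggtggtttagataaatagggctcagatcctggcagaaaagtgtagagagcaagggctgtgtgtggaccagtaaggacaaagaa
*Gbp2*, chr3:142620413-142620712, plus strand: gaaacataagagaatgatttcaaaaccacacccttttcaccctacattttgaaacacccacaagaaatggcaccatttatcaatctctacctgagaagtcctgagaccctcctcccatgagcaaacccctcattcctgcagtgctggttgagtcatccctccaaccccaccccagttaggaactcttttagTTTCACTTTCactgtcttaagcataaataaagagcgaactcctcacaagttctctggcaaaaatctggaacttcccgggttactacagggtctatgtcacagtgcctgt
*Ifi47*, chr11:49076337-49076636, plus strand: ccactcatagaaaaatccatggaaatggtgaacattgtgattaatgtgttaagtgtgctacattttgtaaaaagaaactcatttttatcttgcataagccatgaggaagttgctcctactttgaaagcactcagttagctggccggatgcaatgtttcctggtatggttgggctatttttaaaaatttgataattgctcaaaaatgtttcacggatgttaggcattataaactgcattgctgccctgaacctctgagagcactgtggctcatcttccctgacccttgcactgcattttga

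A match describes letters only and was not tested for binding. All 10 genes passed the filter on low counts and were tested among 20290 genes.

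Every one of the 10 GTPases was lower, on average, in the brains of mice given *Tet2*-KO marrow. Mean levels in that group were between 37.4% (*Ifi47*) and 66.0% (*Gbp5*) of those in WT brains, by the fitted fold change. None passed the threshold of 0.05 after adjustment over all genes in the edgeR quasi-likelihood test (adjusted p from 0.110 to 0.171), a threshold that 0.0246% of the tested genes passed. At an unadjusted p under 0.05 all 10 were lower and none was higher, compared with 12.2% of all tested genes lower and 10.8% higher. The median log2 fold change of the 10 was -0.77, beside 0.010 for all tested genes, of which 47.7% were below 0. In no gene did the groups separate fully, while this happened in 0.641% of tested genes in the lower direction and in 0.453% in the higher. In bulk tissue, fewer cells that make these transcripts and less transcript per cell cannot be told apart.

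**Figure D1:**
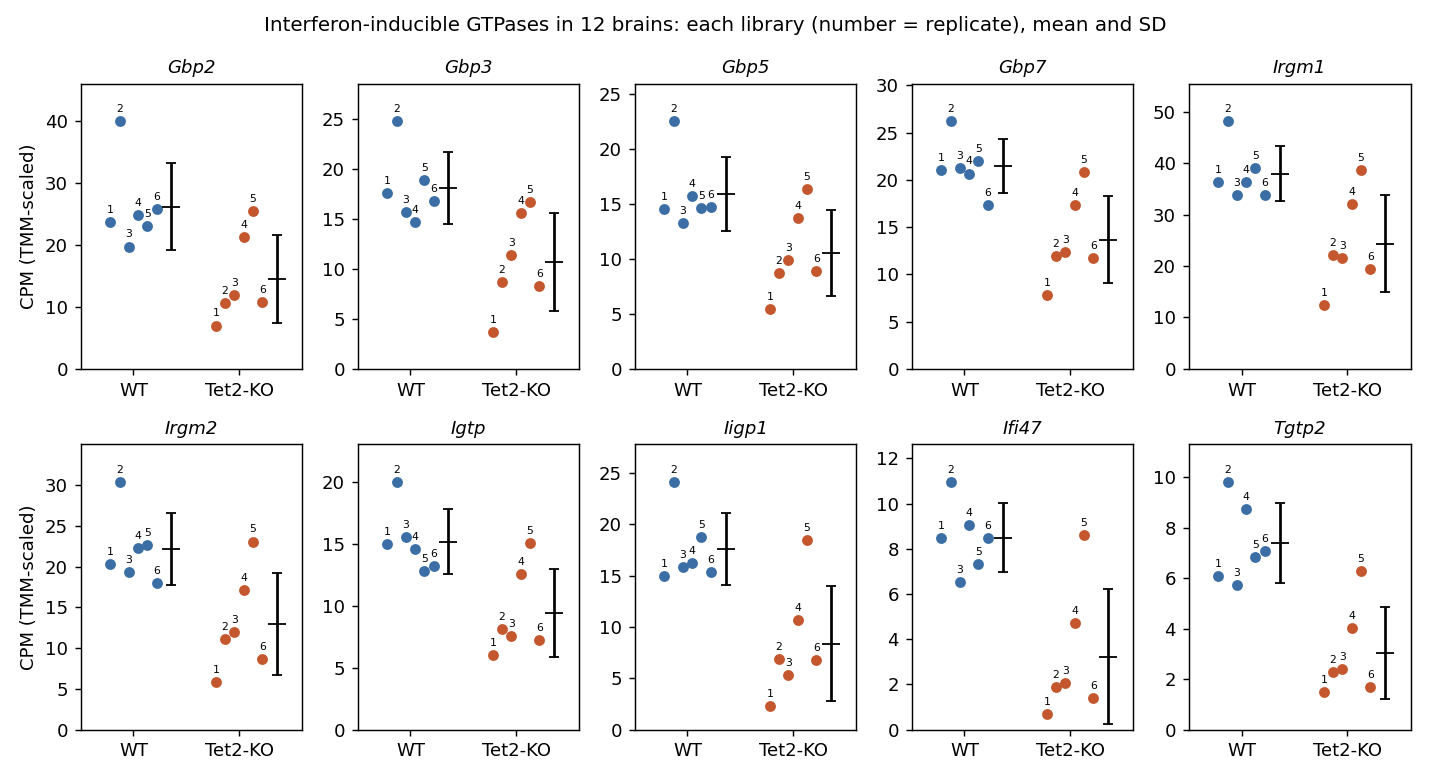
Level of each of the 10 genes in CPM (y axis, from 0) in the 6 WT and 6 *Tet2*-KO libraries, numbered by replicate, with the group mean and SD at the side. WT replicate 2 is the highest point in all 10 panels, *Tet2*-KO replicate 1 the lowest, and *Tet2*-KO replicate 5 lies within the WT range in all 10.

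Among the GBPs, *Gbp2* is a broadly induced family member that binds vacuole membranes and bacteria. Its level was 19.7, 24.3 and 40.0 CPM (lowest, median and highest) in the WT brains and 7.0, 11.4 and 25.4 CPM in the *Tet2*-KO brains. *Tet2*-KO replicates 4 (21.3 CPM) and 5 (25.4 CPM) lay inside the WT range and the other 4 lay below it. The log2 fold change was -0.86 ± 0.30 (SE; edgeR, adjusted p = 0.150).

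*Gbp3* ranged over 14.6, 17.2 and 24.8 CPM in WT brains and 3.66, 10.03 and 16.7 CPM in *Tet2*-KO brains. Replicates 4 and 5 of the *Tet2*-KO group were again inside the WT range, and the log2 fold change was -0.75 ± 0.30 (SE; edgeR, adjusted p = 0.171). *Gbp5*, which promotes assembly of the NLRP3 inflammasome, had 13.2, 14.6 and 22.5 CPM in WT brains and 5.45, 9.40 and 16.3 CPM in *Tet2*-KO brains. It had the smallest difference of the 10, with a log2 fold change of -0.60 ± 0.23 (SE; edgeR, adjusted p = 0.157). *Gbp7*, which has been tied to the assembly of the NADPH oxidase and to autophagy, had 17.4, 21.2 and 26.3 CPM in WT brains and 7.81, 12.2 and 20.9 CPM in *Tet2*-KO brains. Its lowest WT library and *Tet2*-KO replicate 4 were both at 17.4 CPM to 3 digits, and the log2 fold change was -0.65 ± 0.19 (SE; edgeR, adjusted p = 0.123).

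The 3 GMS regulators had log2 fold changes from -0.78 to -0.64. *Irgm1*, which protects lymphocytes and macrophages from damage by the effector GTPases, was the most abundant by counts and spanned 33.8, 36.4 and 48.2 CPM in WT brains and 12.4, 21.8 and 38.6 CPM in *Tet2*-KO brains. Only *Tet2*-KO replicate 5 was inside the WT range, and the log2 fold change was -0.64 ± 0.23 (SE; edgeR, adjusted p = 0.149). *Irgm2*, a regulator that resides on the Golgi, was at 18.0, 21.3 and 30.4 CPM in WT brains and at 5.82, 11.5 and 23.1 CPM in *Tet2*-KO brains, with a log2 fold change of -0.78 ± 0.28 (SE; edgeR, adjusted p = 0.152). *Igtp*, found on the endoplasmic reticulum and lipid droplets, was at 12.8, 14.8 and 20.01 CPM in WT brains and at 6.01, 7.82 and 15.1 CPM in *Tet2*-KO brains. Its log2 fold change was -0.69 ± 0.21 (SE; edgeR, adjusted p = 0.123), and as for *Irgm1* and *Irgm2* only replicate 5 overlapped the WT libraries.

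Of the 10 genes followed, the 3 GKS effectors had the 3 lowest log2 fold changes. *Ifi47* was at 6.53, 8.49 and 10.97 CPM in WT brains and at 0.682, 1.99 and 8.63 CPM in *Tet2*-KO brains. Of the *Tet2*-KO libraries, 4 were at 2.08 CPM or below, replicate 4 was at 4.73 CPM and replicate 5, at 8.63 CPM, was at the WT mean of 8.48. The log2 fold change was -1.42 ± 0.46 (SE; edgeR, adjusted p = 0.134), with as few as 11 reads in the lowest library.

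*Tgtp2*, a T cell-specific GTPase by name that macrophages also make, was at 5.74, 6.95 and 9.83 CPM in WT brains and at 1.49, 2.35 and 6.28 CPM in *Tet2*-KO brains. It had the smallest p of the 10, with a log2 fold change of -1.30 ± 0.30 (SE; edgeR, adjusted p = 0.110). *Iigp1*, the effector that coats the vacuole of Toxoplasma gondii, was at 15.0, 16.1 and 24.2 CPM in WT brains and at 2.29, 6.84 and 18.4 CPM in *Tet2*-KO brains, with a log2 fold change of -1.08 ± 0.38 (SE; edgeR, adjusted p = 0.147). In all 3 effectors only *Tet2*-KO replicate 5 was inside the WT range.

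The ratio of effectors to regulators describes the same contrast within each library, where sequencing depth cancels. For every 100 reads on the 3 GMS genes there were 41.05 to 47.56 reads on the 3 GKS genes in WT brains (median 44.97). In *Tet2*-KO brains there were 18.41 to 43.46 (median 27.32). Only replicate 5, with 43.46, was inside the WT range, and replicate 4 reached 31.47. This ratio was chosen with the fold changes known and carries no test.

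**Figure D2:**
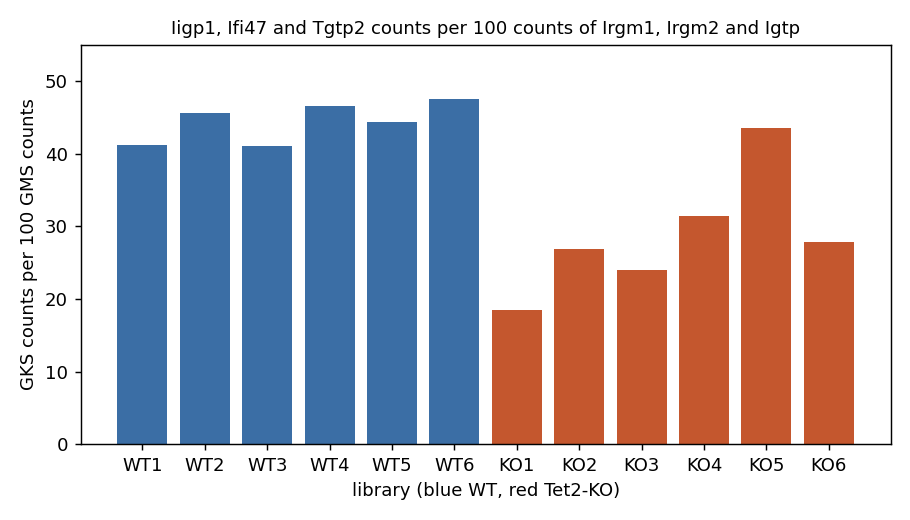
Reads on *Iigp1*, *Ifi47* and *Tgtp2* per 100 reads on *Irgm1*, *Irgm2* and *Igtp* in each library (bars from 0). WT libraries lie between 41.05 and 47.56, and the *Tet2*-KO libraries other than replicate 5 lie at 31.47 or below.

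Levels of different genes were set side by side per kilobase of exon, with all annotated exons of a gene merged. Merged exons can be longer than the transcript present, so the order below depends on the annotation. *Gbp2* had the highest level in WT brains at 10.4 ± 2.8 CPM per kb (SD, n = 6). *Igtp* followed at 7.503 ± 1.28, *Irgm1* at 6.53 ± 0.93, *Irgm2* at 6.00 ± 1.19 and *Gbp3* at 5.54 ± 1.11 CPM per kb. The others were between 2.39 (*Gbp5*) and 3.82 (*Gbp7*) CPM per kb. Of the 9 neighbouring pairs in this order, 2 differed by more than the larger SD of the pair, namely *Gbp2* over *Igtp* and *Gbp3* over *Gbp7*. Each regulator was above each effector in mean level per length, with *Ifi47* at 3.43, *Iigp1* at 3.02 and *Tgtp2* at 2.51 CPM per kb. In the *Tet2*-KO brains these 3 effectors averaged 1.31, 1.44 and 1.03 CPM per kb.

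The 10 genes varied together from brain to brain. Over the 12 libraries the Pearson correlation of log2 CPM between any pair was 0.8862 to 0.9929 (45 pairs, median 0.9639). After each group's mean had been subtracted it was still 0.8168 to 0.9869 (median 0.9348). Within the 6 WT libraries alone it was 0.4033 to 0.9789. Genes measured in the same library share its depth and cell composition, so the values are a description and have no p. WT replicate 2 was the highest library for all 10 genes and *Tet2*-KO replicate 1 the lowest for all 10. *Tet2*-KO replicates 1, 2, 3 and 6 were below the lowest WT library in all 10 genes, replicate 4 in 6 and replicate 5 in none. In 5 genes, replicate 5 was above the WT mean.

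The calls depended on that library and on the test used. When *Tet2*-KO replicate 5 was left out, 9 of the 10 genes fell past the threshold in the edgeR test (all but *Gbp3*), with 7.30% of tested genes called lower. Median log2 fold change was then -0.96, from -0.76 for *Gbp5* to -1.93 for *Ifi47*, and in 6 of the 10 genes the groups no longer overlapped, compared with 4.76% of the genes tested without that library in the lower direction. With all 12 libraries and the DESeq2 Wald test, 4 genes were lower past the threshold (*Gbp7*, *Irgm1*, *Igtp* and *Tgtp2*), compared with 3.71% of the genes given an adjusted p there.

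**Figure D3:**
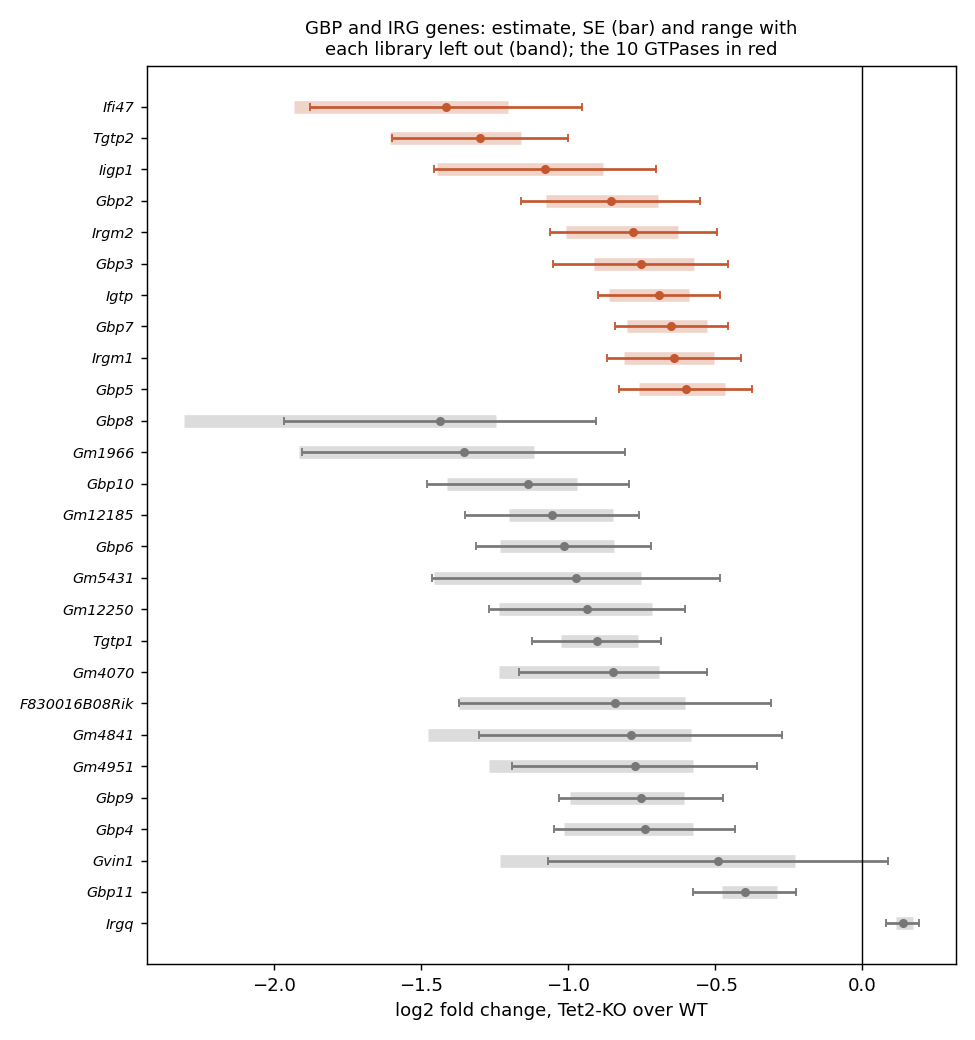
Log2 fold change of *Tet2*-KO over WT brains for the 10 GTPases (red) and the other tested GBP, IRG and very large inducible GTPase genes (grey). Bars are SE, and bands are the range when each library in turn was left out. The 10 lie between -1.42 and -0.60, and *Irgq* is the one gene above 0.

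Of 19 further mouse GBP, IRG and very large inducible GTPase genes in the table, 17 were tested. Their median log2 fold change was -0.85. The unadjusted p was under 0.05 for 11 genes with a lower level and for 1 with a higher level, none of which passed the adjusted threshold. Of all tested genes, 12.2% were lower and 10.8% higher at that unadjusted p. *Gbp8* had the lowest value at -1.44 ± 0.53 (SE), and *Gm1966*, of the very large inducible GTPases and annotated as a pseudogene, had -1.36 ± 0.55. *Tgtp1*, the copy of *Tgtp2*, was at 2.47, 3.01 and 4.73 CPM in WT brains and at 0.867, 1.72 and 2.59 CPM in *Tet2*-KO brains, with a log2 fold change of -0.90 ± 0.22 (SE; edgeR, adjusted p = 0.110). *Irgq*, a divergent member of the IRG family, was the exception: it was at 84.8, 93.6 and 97.5 CPM in WT brains and at 88.8, 102.6 and 108.9 CPM in *Tet2*-KO brains, a log2 fold change of 0.14 ± 0.06 (SE; edgeR, adjusted p = 0.167). Its level per length in WT brains, 15.2 ± 0.79 CPM per kb (SD, n = 6), exceeded that of every one of the 10. *Gbp2b* and *Irgc1* were too low to test.

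Upstream of the GTPases, interferon-gamma binds a receptor of *Ifngr1* and *Ifngr2*, which signals through the kinases *Jak1* and *Jak2* and leads to induction of the transcription factor *Irf1*. The ligand *Ifng* had at most 2 reads in any library and was not tested, so that nothing can be said of it at this depth. *Ifngr1* was at 40.1, 45.3 and 71.9 CPM in WT brains and at 17.2, 25.5 and 47.2 CPM in *Tet2*-KO brains (log2 fold change -0.72 ± 0.24, SE; edgeR, adjusted p = 0.140). *Irf1* was at 15.7, 18.1 and 25.6 CPM in WT brains and at 7.497, 10.1 and 16.3 CPM in *Tet2*-KO brains (-0.78 ± 0.19, SE; edgeR, adjusted p = 0.110). In both genes the highest *Tet2*-KO library reached into the WT range. *Ifngr2* and *Jak1* had log2 fold changes of -0.28 and -0.05. Over the 11 tested genes of this route, 9 were lower at an unadjusted p under 0.05 and none higher, compared with 12.2% and 10.8% of all tested genes.

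The type I interferon route, in which *Ifnar1* and *Ifnar2* signal through *Tyk2*, *Stat2* and *Irf9*, had 8 tested genes. All 8 were lower at an unadjusted p under 0.05, compared with 12.2% of all tested genes, and their median log2 fold change was -0.45. *Ifnb1* had at most 1 read in any library. *Irf7* had the lowest value (-1.03 ± 0.46, SE) and *Irf3* the highest (-0.24 ± 0.07, SE), while *Ifnar1*, with the smallest p, was at -0.28 ± 0.07 (SE).

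Other genes that interferons induce were listed beside the GTPases. Of 19 tested interferon-gamma targets (chemokines, antigen-processing and MHC class II genes), 16 were lower and none higher at an unadjusted p under 0.05, with a median of -0.89. *Acod1*, which makes itaconate, had the lowest value of these (-2.90 ± 0.54, SE) and *Wars* the highest (0.07 ± 0.05, SE). Of 21 type I antiviral targets, 18 were lower and none higher by the same rule, with a median of -0.84 and a range from *Mx1* (-1.39 ± 0.51, SE) to *Cmpk2* (-0.25 ± 0.09, SE). Among partners of the GTPases, 10 of 18 autophagy-conjugation and inflammasome genes were lower and 1 was higher by that rule, with a median of -0.22. *Casp4*, the receptor for cytosolic lipopolysaccharide, had the lowest value (-1.27 ± 0.33, SE) and *Gabarapl1* the highest (0.16 ± 0.07, SE). *Casp1*, with the smallest p, had -0.72 ± 0.17 (SE). None of these genes passed the adjusted threshold in the edgeR test. At the unadjusted p under 0.05 used for these counts, 12.2% of all tested genes were lower and 10.8% higher.

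**Figure D4:**
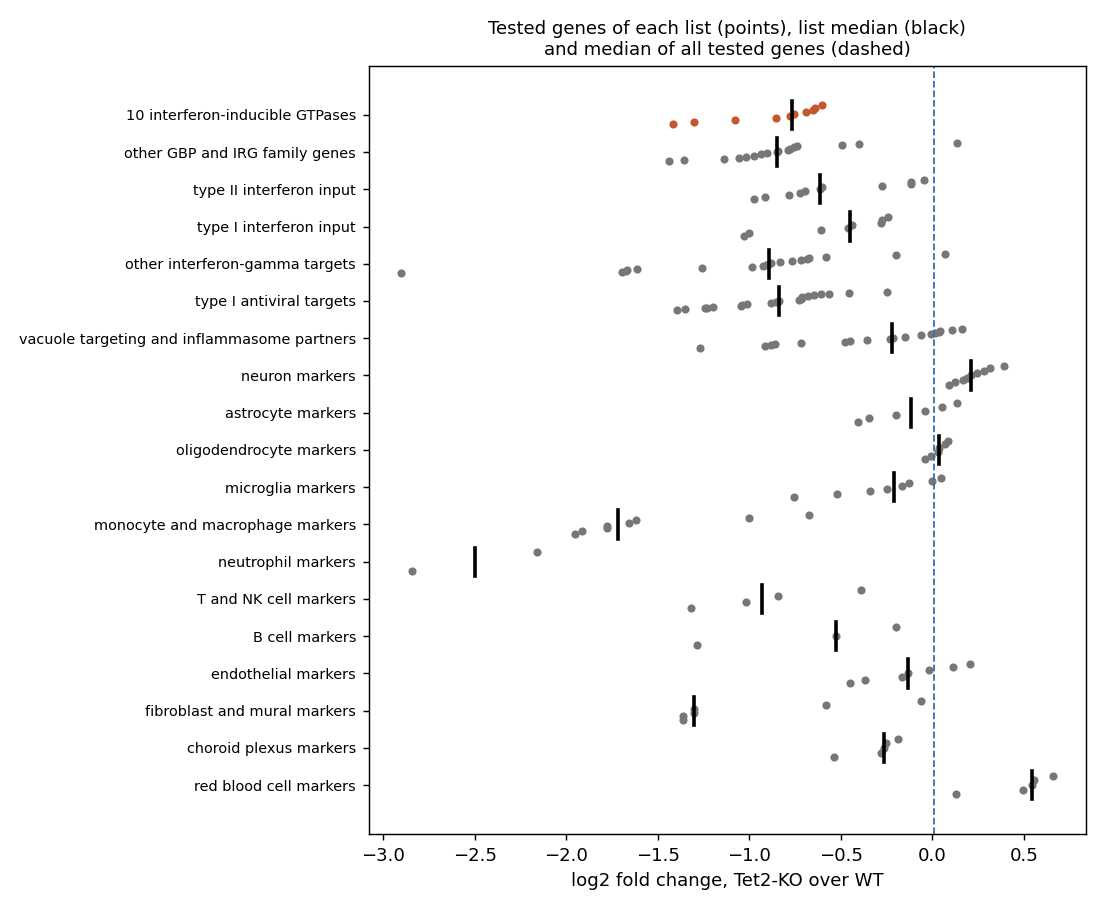
Log2 fold change of *Tet2*-KO over WT brains for the tested genes of each list (points), the list's median (black bar) and the median of all tested genes (dashed line, 0.010). The 10 GTPases have a median of -0.77, and the monocyte and macrophage markers one of -1.71.

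Markers of several other cell types differed between the groups beside the GTPases. At an unadjusted p under 0.05, 12.2% of all tested genes were lower and 10.8% higher. All 8 monocyte and macrophage markers were lower by that rule (median -1.71). Their summed level was 369, 501 and 969 CPM (lowest, median and highest) in WT brains and 28.7, 102 and 483 CPM in *Tet2*-KO brains. Most of the sum in every library was *Lyz2*, at 321 to 877 CPM in WT brains and 23.3 to 423 CPM in *Tet2*-KO brains. WT replicate 2 had the highest sum and *Tet2*-KO replicate 1 the lowest, and *Tet2*-KO replicate 5, with 483 CPM, was inside the WT range, as for the GTPases. Fibroblast and mural markers were lower for 5 of 6 genes by the same rule (median -1.30). T and NK cell markers, of which 4 of 12 could be tested, summed to 13.5 to 23.6 CPM in WT brains and 6.42 to 13.7 CPM in *Tet2*-KO brains. Of the neutrophil markers, *S100a8* and *S100a9* fell past the adjusted threshold and the other 5 were too low to test. Microglial markers summed to 687 to 1249 CPM in WT brains and 325 to 874 CPM in *Tet2*-KO brains, with 1 of 8 lower at an unadjusted p under 0.05 (*Fcrls*, -0.75 ± 0.32, SE). Neuronal markers were higher for 8 of 9 genes at that unadjusted p (median 0.21). Red blood cell markers went the other way from those of leukocytes, with 3 of 5 higher at that unadjusted p and none lower (median 0.54), and summed to 21.2 to 31.5 CPM in WT brains and 27.4 to 41.2 CPM in *Tet2*-KO brains. The part of these cells in the GTPase values was not tested.

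**Figure D5:**
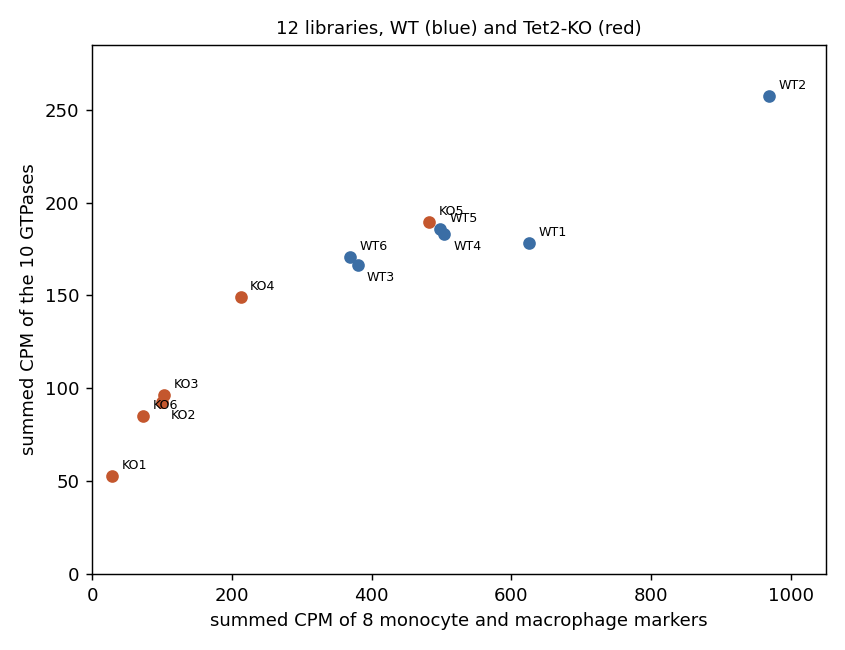
Summed CPM of the 10 GTPases (y axis) against the summed CPM of 8 monocyte and macrophage markers (x axis) in each of 12 libraries. WT is in blue and *Tet2*-KO in red, and *Lyz2* makes up most of the marker sum. *Tet2*-KO replicate 5 sits among the WT libraries, and WT replicate 2, at 969 and 257 CPM, stands at the upper right.

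Genes outside the GBP, IRG and very large inducible GTPase genes were ranked by Pearson correlation with the mean standardised log2 CPM of the GTPases over the 12 libraries. Among the 10 highest were *Apobec1* (0.9970), *Rnf213* (0.9949), *Fcgr2b* (0.9948), *Cd53* (0.9947), *Parp14* (0.9945), *Plin2* (0.9939), *Ifitm3* (0.9935), *Trim30a* (0.9934) and *Bgn* (0.9933). The log2 fold changes of these 9 were between -1.31 (*Apobec1*) and -0.86 (*Rnf213*).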

How the data were processed

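Groups and replicate numbers came from the sample titles. The members and lists were chosen with earlier results of these data known. Per the labels and the paper's methods, the authors trimmed reads with Trimmomatic 0.36, aligned them with STAR 2.5.2b and counted uniquely mapped exonic reads with featureCounts (Subread 1.5.2), and the submitters' processing notes name the build mm10. They deposited whole-number counts per gene with no normalization. The annotation and the strand setting are not given in the sources used here. GENCODE M21 gave symbols, positions and exon lengths, and RefSeq the promoters.

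Counts were filtered with filterByExpr, scaled by TMM and tested with the edgeR 4.0.16 quasi-likelihood F test in R 4.3.3 (robust, no covariates, 12 libraries, Benjamini-Hochberg adjustment over all tested genes, threshold 0.05). SE is the log2 fold change over the square root of F. Log2 CPM used a prior count of 2. Alternatives were the DESeq2 1.42.0 Wald test, limma-voom (limma 3.58.1) with sample quality weights, other scalings and filters, a replicate block and each library left out. The methods were tested on simulated data in which no library deviated from its group. That test cannot show how they behave with a library such as *Tet2*-KO replicate 5. Named genes were all 10 members, family genes, receptors, *Irf1*, the extremes of each list, and the 10 genes most alike. The single values of 2 listed genes are not reported here. P-values measure only the spread between these libraries. The range of total counts, with 11 to 672 reads per member and library, limits the precision of the lowest values.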

Additional observations from a re-analysis of the deposited data

Results flagged for a closer look

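In 4 of 20 groups examined (10 genes in 2 groups of 6 libraries), 1 library was far from the other 5 by Dixon's test, which chance alone gives in about 1 of 20. In each case it was WT replicate 2, which was the highest library, at 40.02 CPM for *Gbp2*, 22.52 CPM for *Gbp5*, 48.20 CPM for *Irgm1* and 30.41 CPM for *Irgm2*. The 10 genes move together across libraries, so these are not 4 independent findings. Without WT replicate 2, 8 of the 10 genes were lower at an unadjusted p under 0.05 in place of all 10, while the share of all tested genes lower by that rule was 7.92% in place of 12.2%, and the median log2 fold change was -0.65.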

How the results depend on the processing

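The sign of all 10 log2 fold changes was the same under every alternative run. The number of tested genes past the adjusted threshold, in either direction, was 5 in the edgeR test. DESeq2 gave 917 and limma-voom gave 1863. The number was 44 with no filter, 0 with at least 10 counts in every library and 0 with the replicate block. Of the GTPases, 0 passed in the edgeR test. Under DESeq2 4 were lower past the threshold, beside 705 of the 18995 genes given an adjusted p (3.71%). Under limma-voom 9 were (all but *Gbp3*), beside 1295 lower among 20290 tested genes. With a library left out, tested genes past the threshold ranged from 0 to 2257, GTPases past it from 0 to 9 (9 without *Tet2*-KO replicate 5 and 0 without any other), GTPases lower at an unadjusted p under 0.05 from 8 to 10 (7.92% to 14.6% of all tested genes), GTPases without overlap from 0 to 6 (0.694% to 4.76% of all tested genes, in the lower direction, with the 6 and the 4.76% both without *Tet2*-KO replicate 5) and the median log2 fold change from -0.96 to -0.61. The cause was not tested. *P2ry12*, at 0.05, ranged from -0.047 (without *Tet2*-KO replicate 4) to 0.127 with a library left out. Deviations of same-numbered libraries had correlations from -0.169 to 0.229, which cannot decide whether the numbers pair the mice. With a replicate block in the edgeR test the median of the 10 was -0.86. All 10 were then lower at an unadjusted p under 0.05, compared with 11.9% of all tested genes. The 6 mice per group and the 11 reads of *Ifi47* in its lowest library limit the precision.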
